A study of Mus musculus with 6 samples.

Results

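The genes described are 32 members of the DNA repair machinery of the mouse, chosen by symbol: 10 of nucleotide excision repair, 13 of base excision repair and single-strand break sealing, 3 of mismatch repair and 6 of non-homologous end joining. All 32 were among the 22105 genes of the table. They were measured by RNA sequencing in RAW264.7, a mouse macrophage line transformed by Abelson murine leukemia virus. The nanoparticle group held 3 libraries of cells given CM-PEG-PLGA@DOX/R848 nanoparticles at the equivalent of 2 µg/mL DOX, and the PBS group held 3 libraries of cells given phosphate buffered saline, all for 24 h. DOX is doxorubicin, which poisons topoisomerase II and breaks DNA. R848 (resiquimod) activates endosomal Toll-like receptors of macrophages. PLGA and PEG are polymers of the particle, and what CM stands for is not given. No library received DOX, R848 or the empty carrier alone, so their parts cannot be told apart. The labels number the replicates without saying that each came from its own culture, so the spread behind every p-value is that of these samples and may be technical.

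Nucleotide excision repair removes bulky lesions by cutting out a stretch of the damaged strand, after recognition either anywhere in the genome or at a stalled RNA polymerase. Base excision repair starts with glycosylases that remove a single altered base, and it also deals with the oxidised bases and strand breaks that reactive oxygen species of macrophages produce. Mismatch repair corrects copying errors behind the replication fork, and end joining ligates broken ends of DNA without a template, which is one route by which breaks left by topoisomerase II poisons are closed.

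The repair genes moved in both directions after nanoparticle treatment. Of the 32 members, 11 rose and 14 fell (limma on log2(FPKM + 1), Benjamini-Hochberg adjusted p below 0.05 over all genes tested). Median-ratio scaling of the libraries, under which the median of all genes was -0.04, gave 8 members higher and 17 lower, against 3682 higher and 4199 lower among all tested genes. The change was therefore called for 25 members, or 78.1%, which is close to the background of 77.2% of the 10229 genes tested. By direction, 34.4% of members rose, against 42.7% of all tested genes, and 43.8% fell, against 34.5%. The median log2 fold change of the members was -0.04 and that of all tested genes 0.08. On log2(FPKM + 1) a log2 fold change of at least 1 in size was reached by 1 member that rose (background 11.4%) and by 4 that fell (background 6.29%). This scale understates the change of low genes. It left out Ercc5, Neil1 and Ung, whose ratios of mean FPKM, nanoparticle over PBS, were 2.03, 0.479 and 0.499. The libraries of the groups did not overlap at 26 members, or 81.2%, against 78.8% of all tested genes. Since most of the transcriptome passed the threshold, the number of members called is no result about repair, and what follows rests on the size and direction of single genes. FPKM counts fragments relative to transcript length and library size. This unit was inferred from the values, as no header states it. Only if it holds can levels of different genes be set side by side.

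All 32 members had at least 1 FPKM in every library. Their summed level was 637 to 660 FPKM in nanoparticle libraries and 713 to 749 FPKM in PBS libraries. In both groups Ddb1, Apex1 and Fen1 were the most abundant, and these 3 genes held 43.5% to 44.6% of the summed member level in nanoparticle libraries and 45.5% to 47.3% in PBS libraries. At the low end, Prkdc and Lig4 averaged 1.13 and 2.14 FPKM in nanoparticle libraries and 2.15 and 1.47 FPKM in PBS libraries. Ercc1 moved most in the order of levels and was 4th of 32 in nanoparticle libraries and 17th in PBS libraries.

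**Figure D1:**
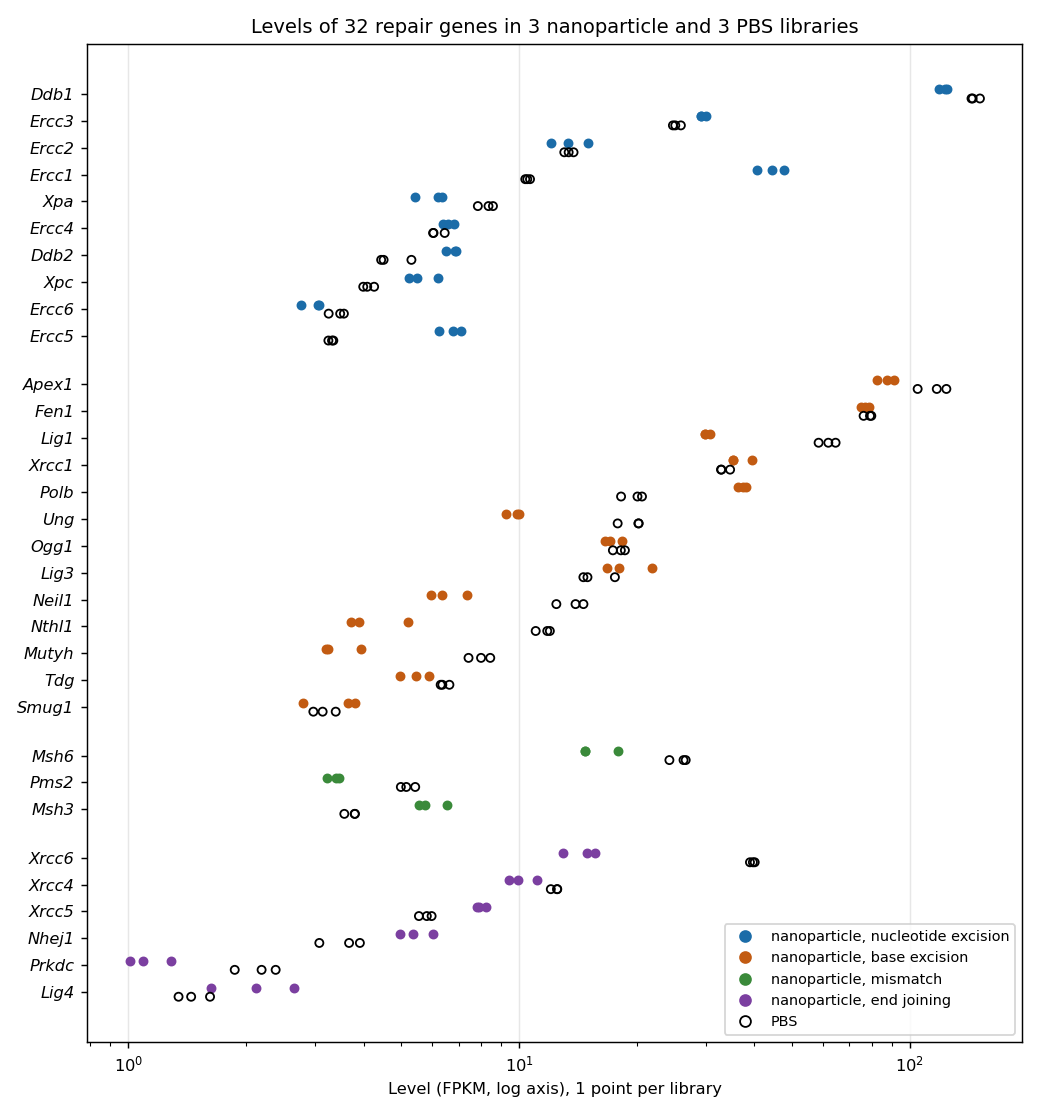
Level of each of the 32 repair genes (FPKM, log axis), with 1 point per library, filled for nanoparticle and open for PBS libraries, grouped by pathway and ordered by the PBS mean. The groups stand clear of each other at 26 genes. Ercc1 lies at 40.7 to 47.7 FPKM in nanoparticle libraries and 10.4 to 10.7 FPKM in PBS libraries.

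Other gene groups moved in the same libraries. Of 14 replication licensing genes 9 fell and 2 rose (summed level 616 to 629 FPKM in nanoparticle and 898 to 919 FPKM in PBS libraries). Of 16 targets of the transcription factor p53 that act in arrest and death 14 rose and 1 fell (763 to 822 FPKM in nanoparticle and 272 to 293 FPKM in PBS libraries). Among all tested genes 42.7% rose and 34.5% fell. Both lists were chosen with earlier results of these data known. Mcm6, a subunit of the replicative helicase, averaged 52.2 ± 1.42 FPKM in nanoparticle and 123 ± 3.47 FPKM in PBS libraries, and Cdkn1a, an inhibitor of cell cycle kinases, 286 ± 17.1 FPKM in nanoparticle and 32.6 ± 0.885 FPKM in PBS libraries (SD, n = 3 each). The number of genes listed above 0 was 15723 to 15989 in nanoparticle and 12678 to 12872 in PBS libraries. The 9 macrophage markers were all detected, at a summed 1356 to 1403 FPKM in nanoparticle and 2804 to 2891 FPKM in PBS libraries. Of these markers 5 fell, among them Lyz2 with 395 ± 8.95 FPKM in nanoparticle and 1503 ± 32.2 FPKM in PBS libraries, and Adgre1, Mpeg1 and Fcgr3 rose. The 20 markers of T cells, B cells, fibroblasts and epithelium in the table stayed at or below 0.431 FPKM in nanoparticle libraries and 0.156 FPKM in PBS libraries. The part of any of these in the changes of repair genes was not tested. In such bulk samples fewer cells of a type and less RNA per cell cannot be told apart.

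Nucleotide excision repair was the branch with more members higher than lower: of its 10 members 5 rose, 2 fell and 3 did not pass the test. The 50% that rose was near the 42.7% of all tested genes, and 20% fell, against 34.5%. Median-ratio and upper quartile scaling each gave 4 members higher and 3 lower in this branch. Ercc1, which with Ercc4 forms the nuclease that cuts on one side of the lesion, had 47.7, 44.3 and 40.7 FPKM in nanoparticle libraries, against 10.5, 10.7 and 10.4 FPKM in PBS libraries. Every nanoparticle library was several-fold above every PBS library. Its change on the log2 scale was 1.97 ± 0.07 (SE; adjusted p = 5.8e-09, limma), a 4.21-fold ratio of mean FPKM. This gene (ENSMUSG00000003549) lies on chromosome 7 at 19344778 to 19356524 on the plus strand of GRCm38 and shares 106 exon bases with Polr1g, a subunit gene of RNA polymerase I on the opposite strand. Polr1g had 21.9 ± 0.466 FPKM in nanoparticle libraries and 23.2 ± 0.827 FPKM in PBS libraries (SD, n = 3 each; log2 fold change -0.09, limma adjusted p = 0.20). Its partner Ercc4, the catalytic subunit of the same nuclease, had 6.59, 6.83 and 6.39 FPKM in nanoparticle libraries and 6.45, 6.03 and 6.04 FPKM in PBS libraries. The groups overlapped there, and the 95% interval of its log2 fold change ran from -0.07 to 0.24 (limma adjusted p = 0.29).

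Ercc5, the nuclease that cuts on the other side of the lesion, had 6.25, 6.79 and 7.10 FPKM in nanoparticle libraries and 3.25, 3.32 and 3.35 FPKM in PBS libraries. All nanoparticle libraries were above all PBS libraries, and the change was 0.84 ± 0.07 on the log2 scale (SE; adjusted p = 4.0e-06, limma). The damage sensors Xpc and Ddb2 rose as well. Xpc, which detects distortion of the helix, averaged 5.64 ± 0.500 FPKM in nanoparticle and 4.11 ± 0.134 FPKM in PBS libraries (limma adjusted p = 0.0018). Ddb2, which binds ultraviolet photoproducts, had 6.85, 6.91 and 6.51 FPKM in nanoparticle libraries and 4.50, 4.44 and 5.30 FPKM in PBS libraries (log2 fold change 0.44, limma adjusted p = 7.4e-04). Ddb2 shares 652 of its 2736 exon bases with Acp2 on the opposite strand. Acp2 averaged 11.9 FPKM in nanoparticle and 8.97 FPKM in PBS libraries (log2 fold change 0.37). Ddb1, the partner of Ddb2 and the adaptor of a cullin ubiquitin ligase, went the other way, with 125, 123 and 119 FPKM in nanoparticle libraries and 151, 145 and 144 FPKM in PBS libraries. Ddb1 fell by 0.26 on the log2 scale (limma adjusted p = 9.2e-04).

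The remaining members of the branch unwind or check the DNA or couple repair to transcription. Of the TFIIH helicases that unwind DNA around the lesion, Ercc3 rose by 0.22 on the log2 scale (29.5 ± 0.502 FPKM in nanoparticle and 25.3 ± 0.610 FPKM in PBS libraries, limma adjusted p = 0.0042), a call lost under median-ratio scaling (adjusted p = 0.14) and upper quartile scaling (adjusted p = 0.078). Ercc2 averaged 13.5 ± 1.47 FPKM in nanoparticle and 13.4 ± 0.366 FPKM in PBS libraries, with an interval of -0.18 to 0.18 on the log2 scale. Ercc2 shares 744 exon bases with Klc3 on the opposite strand, which rose (log2 fold change 0.70, limma adjusted p = 9.7e-05). It shares 1025 with the annotated antisense gene Gm26852. Ercc6, which couples repair to stalled transcription, had 2.97 ± 0.169 FPKM in nanoparticle and 3.44 ± 0.159 FPKM in PBS libraries. It did not pass (limma adjusted p = 0.083), although median-ratio scaling called it lower (adjusted p = 0.0090). Xpa, which checks the damaged strand and places the nucleases, fell by 0.40 on the log2 scale, to 5.43, 6.22 and 6.35 FPKM in nanoparticle libraries, against 8.57, 8.35 and 7.84 FPKM in PBS libraries (limma adjusted p = 9.5e-04).

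The stretches before the transcription starts of Ercc1 and Ercc5 are shown because these members rose with the smallest p-values among those that have an entry in the RefSeq promoter table. Each holds the 250 bases upstream of the RefSeq start, which need not be the start of the GENCODE gene: the Ercc1 window lies wholly inside the GENCODE gene, while the Ercc5 window ends where that gene begins (GRCm38.p6; Ercc1 chr7:19344821-19345070, plus strand; Ercc5 chr1:44147494-44147743, plus strand). Capitals mark the motif CCAAT or an E2F-like motif (TTTCGCGC, TTTGGCGC, TTTCCCGC or TTTGCCGC), each searched on both strands.
Ercc1: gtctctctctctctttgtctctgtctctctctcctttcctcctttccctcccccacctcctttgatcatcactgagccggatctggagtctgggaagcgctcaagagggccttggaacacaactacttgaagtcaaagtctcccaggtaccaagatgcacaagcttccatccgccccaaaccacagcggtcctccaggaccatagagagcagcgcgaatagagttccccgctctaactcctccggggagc
Ercc5: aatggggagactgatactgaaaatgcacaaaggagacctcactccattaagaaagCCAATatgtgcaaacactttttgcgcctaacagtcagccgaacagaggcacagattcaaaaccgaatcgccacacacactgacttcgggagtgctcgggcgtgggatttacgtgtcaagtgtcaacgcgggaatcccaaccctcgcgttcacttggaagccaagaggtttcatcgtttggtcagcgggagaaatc
No such letters were found in the Ercc1 window, and the Ercc5 window held 1 CCAAT.

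**Figure D2:**
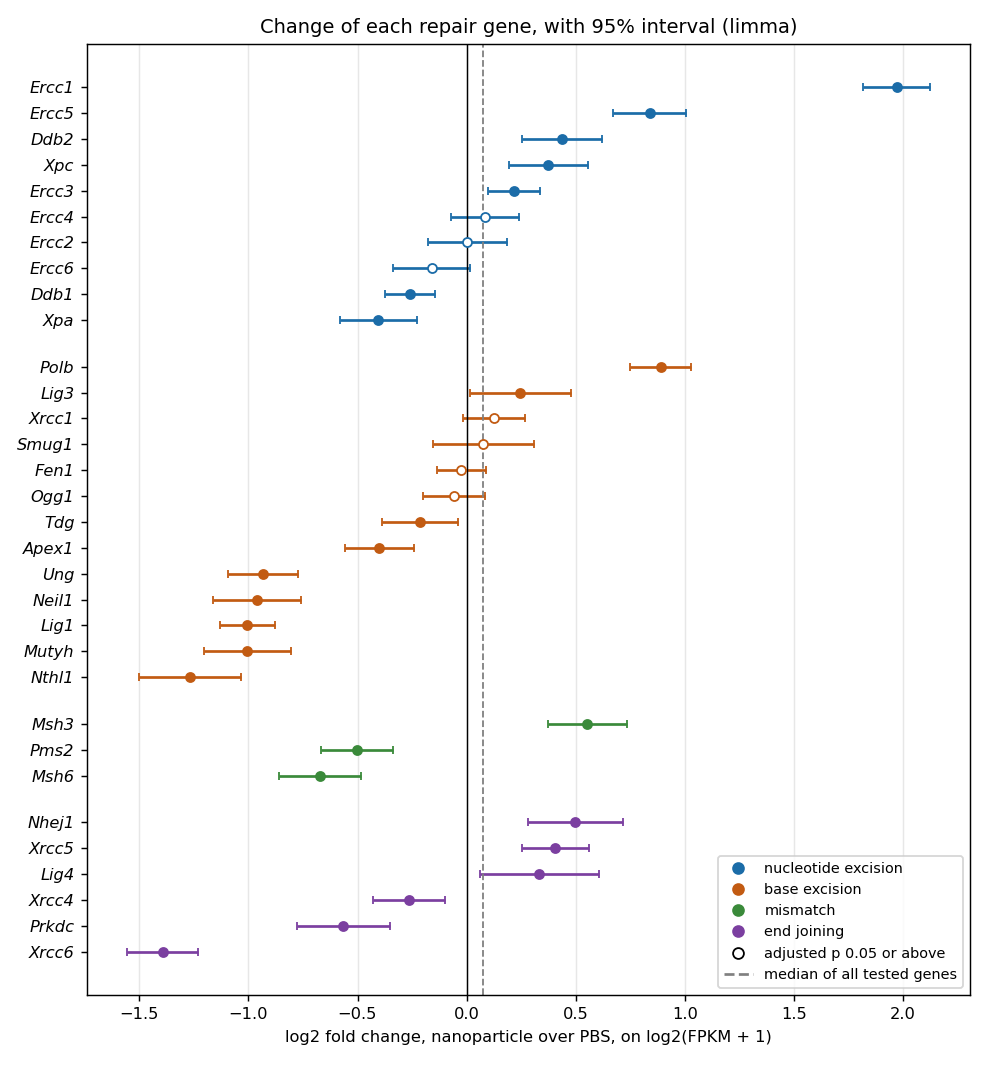
log2 fold change of each repair gene, nanoparticle over PBS, with the 95% interval from limma, filled where the adjusted p was below 0.05. The dashed line is the median of all 10229 tested genes (0.08). Ercc1 stands highest at 1.97 and Xrcc6 lowest at -1.39.

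Of the 13 base excision repair members 7 fell, 2 rose and 4 did not pass. That is 53.8% falling and 15.4% rising, against 34.5% and 42.7% of all tested genes. The fall of Tdg lost its call under 6 of 15 alternative settings. Among the 13 other genes of this pathway tested, 6 rose and 6 fell. The glycosylases that remove oxidised or misplaced bases accounted for most of the falls among the members. Nthl1, which removes oxidised pyrimidines, had 5.19, 3.89 and 3.73 FPKM in nanoparticle libraries, against 11.03, 11.99 and 11.81 FPKM in PBS libraries, and fell by 1.27 on the log2 scale (limma adjusted p = 2.3e-06). Mutyh, which takes out adenine paired with 8-oxoguanine, had 3.95, 3.24 and 3.21 FPKM in nanoparticle libraries and 8.44, 7.99 and 7.42 FPKM in PBS libraries (log2 fold change -1.01, limma adjusted p = 3.7e-06). Neil1, another glycosylase for oxidised bases, had 7.36, 6.35 and 5.96 FPKM in nanoparticle libraries and 14.6, 13.9 and 12.5 FPKM in PBS libraries (log2 fold change -0.96, limma adjusted p = 5.6e-06). For these glycosylases every nanoparticle library was below every PBS library, and nanoparticle replicate 1 was the highest of its group for each.

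Ung, the main uracil glycosylase, fell likewise, to 9.85, 9.98 and 9.26 FPKM in nanoparticle libraries, against 20.2, 20.2 and 17.9 FPKM in PBS libraries (log2 fold change -0.93, limma adjusted p = 1.3e-06). Of the other glycosylases among the members, Tdg passed the test and Smug1 and Ogg1 did not. Outside the members, the glycosylases Mbd4 and Mpg rose (log2 fold changes 0.37 and 0.28, limma adjusted p = 0.0033 and 0.013). Neil3 fell (log2 fold change -1.07, limma adjusted p = 8.0e-07), and Neil2 was too low to be tested. Smug1, a second uracil glycosylase, had 3.65, 3.81 and 2.80 FPKM in nanoparticle libraries and 3.14, 2.98 and 3.40 FPKM in PBS libraries, and the groups overlapped (limma adjusted p = 0.51). Ogg1, which removes 8-oxoguanine, averaged 17.3 ± 0.878 FPKM in nanoparticle and 18.1 ± 0.647 FPKM in PBS libraries, with an interval of -0.20 to 0.09 on the log2 scale. It shares 232 exon bases with Camk1 on the opposite strand, which had 21.3 FPKM in nanoparticle and 68.7 FPKM in PBS libraries on average, and median-ratio scaling called Ogg1 lower (adjusted p = 0.032). Tdg, which acts on thymine or uracil paired with guanine, averaged 5.42 ± 0.460 FPKM in nanoparticle and 6.43 ± 0.177 FPKM in PBS libraries. Its adjusted p was 0.030 with limma, and the call was lost when nanoparticle replicate 1 or 2 or any PBS replicate was left out (adjusted p = 0.055 to 0.13).

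Downstream of the glycosylases the members diverged. Apex1, the endonuclease that cuts at the abasic site, had 91.1, 87.3 and 82.6 FPKM in nanoparticle libraries and 124, 117 and 105 FPKM in PBS libraries (log2 fold change -0.40, limma adjusted p = 5.0e-04). Apex1 shares 877 of its 1422 exon bases with Pip4p1 on the opposite strand, which also fell (log2 fold change -0.22, limma adjusted p = 0.017). Polb, the gap-filling polymerase, had 37.3, 38.0 and 36.3 FPKM in nanoparticle libraries, against 20.1, 20.6 and 18.2 FPKM in PBS libraries. Polb rose by 0.89 ± 0.06 on the log2 scale (SE; adjusted p = 7.3e-07, limma), and no nanoparticle library came near the PBS range. Fen1, the flap endonuclease of long-patch repair and of Okazaki fragments, had 78.7, 76.9 and 75.2 FPKM in nanoparticle libraries and 79.1, 79.7 and 76.1 FPKM in PBS libraries. Its groups overlapped, with an interval of -0.14 to 0.09 on the log2 scale (limma adjusted p = 0.66), though median-ratio scaling called it lower (adjusted p = 0.031). The annotated antisense gene Gm10143 shares 1909 exon bases with Fen1.

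The ligases went apart. Lig1, which seals Okazaki fragments and long-patch repair, had 29.9, 30.8 and 29.8 FPKM in nanoparticle libraries, against 64.5, 58.4 and 61.8 FPKM in PBS libraries, and fell by 1.01 on the log2 scale (limma adjusted p = 1.5e-07). Lig3, the partner of the scaffold Xrcc1 in single-strand break repair and the ligase of mitochondria, had 16.84, 18.01 and 21.82 FPKM in nanoparticle libraries and 14.6, 15.0 and 17.6 FPKM in PBS libraries. The groups overlapped, and the adjusted p of 0.049 with limma was lost under 11 of 15 alternative settings, among them the omission of nanoparticle replicate 2 or 3 or of PBS replicate 1 or 2 (adjusted p = 0.063 to 0.15). Lig3 also shares 1826 exon bases with Rffl on the opposite strand, which rose (log2 fold change 1.13). Xrcc1 averaged 36.6 ± 2.44 FPKM in nanoparticle and 33.5 ± 1.02 FPKM in PBS libraries (limma adjusted p = 0.094), and with the replicate block it passed (adjusted p = 0.031).

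The windows of Lig1 and Ung are shown because, with Xrcc6, they fell with the smallest p-values (GRCm38.p6; Lig1 chr7:13278576-13278825, plus strand; Ung chr5:114130185-114130434, plus strand). For Lig1, which has 3 starts in the table, the one shown is nearest the upstream end of the gene among those whose downstream bases lie in an annotated transcript. The Lig1 window lies inside the GENCODE gene, and that of Ung reaches into its first bases.
Lig1: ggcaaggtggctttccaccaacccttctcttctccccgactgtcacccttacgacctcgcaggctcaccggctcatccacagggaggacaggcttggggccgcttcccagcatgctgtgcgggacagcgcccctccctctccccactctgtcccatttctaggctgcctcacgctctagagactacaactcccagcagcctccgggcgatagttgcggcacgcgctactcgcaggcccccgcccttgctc
Ung: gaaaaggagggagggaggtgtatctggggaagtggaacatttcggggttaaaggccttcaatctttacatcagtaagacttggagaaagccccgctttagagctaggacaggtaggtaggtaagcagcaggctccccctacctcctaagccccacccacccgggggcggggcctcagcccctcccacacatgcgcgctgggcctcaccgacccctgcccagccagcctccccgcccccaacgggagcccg
Neither window held a CCAAT or an E2F-like motif, so both stand in lower case.

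Of the 3 mismatch repair members 1 rose and 2 fell, too few to set against the 42.7% and 34.5% of all tested genes. Msh6, whose complex recognises single mismatched bases, had 14.75, 14.77 and 17.96 FPKM in nanoparticle libraries, against 26.4, 24.2 and 26.7 FPKM in PBS libraries, and fell by 0.67 on the log2 scale (limma adjusted p = 4.3e-05). Msh3, whose complex recognises larger loops, had 5.55, 5.75 and 6.53 FPKM in nanoparticle libraries and 3.57, 3.80 and 3.80 FPKM in PBS libraries, and rose by 0.55 on the log2 scale (limma adjusted p = 1.3e-04). Neither gene's groups overlapped. Pms2, the endonuclease subunit that nicks the strand to be removed, fell to 3.36 ± 0.116 FPKM in nanoparticle libraries, against 5.18 ± 0.222 FPKM in PBS libraries (limma adjusted p = 1.3e-04).

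Across upstream windows of the same length, an E2F-like motif stood in 1.86% of the 32851 promoters of the table, and in 3 of the 32 promoters (9.38%) of the 27 members with an entry: Msh3, which rose, and Xrcc6 and Nthl1, which fell. CCAAT stood in 33.8% of all promoters and in 15 of those 32 (46.9%). The promoters of the table belong to 27025 genes, expressed in these cells or not, while all members were expressed. The shares are therefore of unlike sets, and the E2F-like share of the members rests on 3 promoters. A match of letters is a description and shows no binding.

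End joining members all passed the test, 3 higher and 3 lower, where 77.2% of all tested genes passed. Xrcc6, the smaller subunit of the Ku ring that slides onto broken ends, had 13.0, 15.6 and 14.9 FPKM in nanoparticle libraries, against 39.0, 39.7 and 40.1 FPKM in PBS libraries. It fell by 1.39 ± 0.07 on the log2 scale (SE; adjusted p = 8.7e-08, limma), the largest fall among the 32 members, and each nanoparticle library was far below each PBS library. Xrcc5, the larger Ku subunit, had 7.81, 7.90 and 8.23 FPKM in nanoparticle libraries and 5.54, 5.81 and 5.97 FPKM in PBS libraries. It rose by 0.41 ± 0.07 on the log2 scale (SE; adjusted p = 3.6e-04, limma). Prkdc, the catalytic subunit of the DNA-dependent protein kinase that Ku recruits, fell to 1.09, 1.01 and 1.28 FPKM in nanoparticle libraries, against 2.19, 1.87 and 2.38 FPKM in PBS libraries (limma adjusted p = 3.7e-04).

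Of the ligation complex, Xrcc4, the scaffold, had 9.40, 9.92 and 11.1 FPKM in nanoparticle libraries and 12.1, 12.5 and 12.5 FPKM in PBS libraries and fell by 0.27 on the log2 scale (limma adjusted p = 0.0081). Nhej1, an Xrcc4-like factor that bridges the ends, had 6.01, 5.35 and 4.95 FPKM in nanoparticle libraries and 3.08, 3.91 and 3.67 FPKM in PBS libraries (log2 fold change 0.50, limma adjusted p = 9.7e-04). Lig4, the ligase itself, had 1.63, 2.12 and 2.66 FPKM in nanoparticle libraries and 1.35, 1.45 and 1.62 FPKM in PBS libraries. The groups of Lig4 only just cleared each other, and its limma adjusted p of 0.029 was lost when nanoparticle replicate 2 or 3 or PBS replicate 1 or 2 was left out (adjusted p = 0.061 to 0.092) and under median-ratio and upper quartile scaling (adjusted p = 0.073 and 0.062).

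The window upstream of the RefSeq start of Xrcc6 is given because this member fell furthest (GRCm38.p6, chr15:82016119-82016368, plus strand). Its capitals mark TTTCCCGC on the opposite strand, beginning 46 bases before the start. This window lies well inside the longer GENCODE gene.
Xrcc6: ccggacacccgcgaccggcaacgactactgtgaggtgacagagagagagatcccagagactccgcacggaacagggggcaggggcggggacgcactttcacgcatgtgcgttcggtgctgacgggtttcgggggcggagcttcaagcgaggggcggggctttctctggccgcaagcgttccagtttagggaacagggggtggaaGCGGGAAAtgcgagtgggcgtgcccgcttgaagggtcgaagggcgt
The gene (ENSMUSG00000022471) spans 81987835 to 82040085 on chromosome 15 of GRCm38 and shares 344 exon bases with Desi1 on the opposite strand, which had 30.2 ± 3.22 FPKM in nanoparticle and 25.6 ± 2.63 FPKM in PBS libraries (SD, n = 3 each; limma adjusted p = 0.048).

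The ratio between members that work as partners or alternatives was compared for 8 pairs, chosen with the single-gene results known. A ratio of FPKM taken within a library does not depend on how libraries are scaled. For the Ku subunits, Xrcc6 over Xrcc5 was 1.66, 1.98 and 1.81 in nanoparticle libraries and 7.03, 6.83 and 6.71 in PBS libraries. Ercc1 over Ercc4 was 7.25, 6.48 and 6.37 in nanoparticle libraries and 1.63, 1.77 and 1.72 in PBS libraries. Msh6 over Msh3 was 2.66, 2.57 and 2.75 in nanoparticle libraries and 7.38, 6.38 and 7.03 in PBS libraries. The transcripts of the Ku subunits and of the mismatch sensors were thus closer to each other in level in nanoparticle libraries, and those of the incision nuclease further apart. Lig1 over Lig3 averaged 1.62 ± 0.219 in nanoparticle and 3.95 ± 0.453 in PBS libraries, and Ddb2 over Ddb1 averaged 0.0553 ± 0.000693 in nanoparticle and 0.0324 ± 0.00387 in PBS libraries (SD, n = 3 each). The groups stood apart for all 8 pairs, though only narrowly for Ercc2 over Ercc3 (0.402 to 0.515 in nanoparticle and 0.516 to 0.549 in PBS libraries). Levels of single genes did so for 78.8% of those tested, which is no share of ratios. The share over other pairs was not computed, and pairs chosen with the results known are prone to stand apart. With 3 against 3 libraries the two-sided exact permutation p cannot go below 0.10, the value found for each pair before and after Benjamini-Hochberg adjustment, so the ratios are given as a description.

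**Figure D3:**
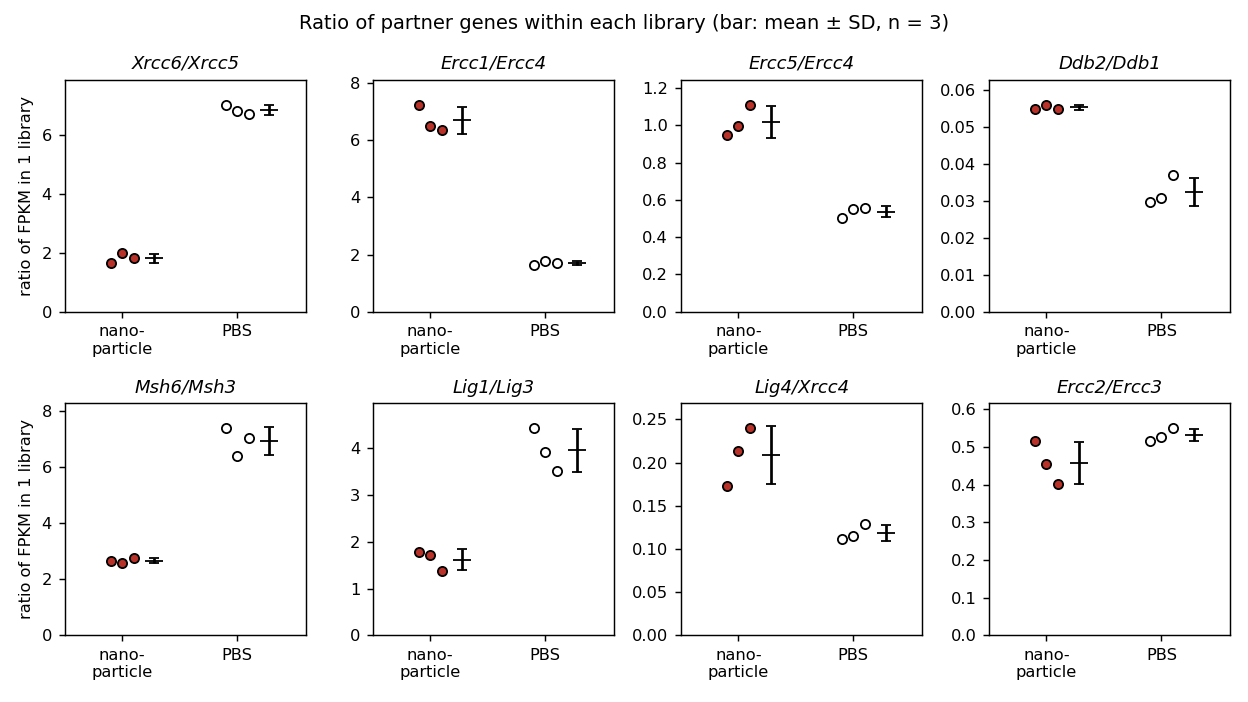
Ratio of the FPKM of 2 partner genes within each library, with 1 point per library and the mean ± SD beside them (n = 3), nanoparticle left and PBS right, each axis starting at 0. Xrcc6 over Xrcc5 lies at 1.66 to 1.98 in nanoparticle and 6.71 to 7.03 in PBS libraries.

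Sharing exon sequence with an expressed opposite-strand gene was common among the members. It applied to 14 of 32, or 43.8%, against 15.1% of the 10207 tested genes found in the annotation, counting opposite-strand genes that averaged 1 FPKM or more. The sources used here do not say whether fragments were counted by strand, so these levels are uncertain to the extent of the shared bases. Of the 14 pairs 9 had both genes called, 5 in the same direction and 4 in opposite directions. The same direction was seen in pairs that include Ddb1 with Tkfc, Ddb2 with Acp2, Lig3 with Rffl and Apex1 with Pip4p1. Opposite directions were seen for Xpa with Ncbp1, Lig1 with Zswim9, Msh6 with Fbxo11 and Xrcc6 with Desi1.

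**Figure D4:**
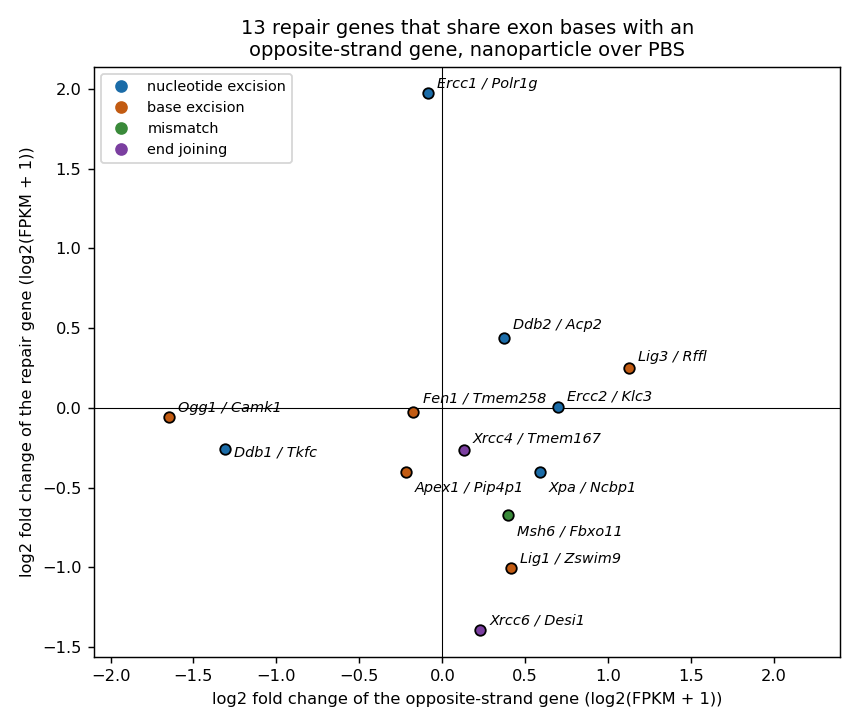
log2 fold change, nanoparticle over PBS, of 13 repair genes that share exon bases with an opposite-strand gene (vertical axis), against that of the opposite-strand gene (horizontal axis). Ercc1 lies at 1.97 with Polr1g at -0.09, and Xrcc6 at -1.39 with Desi1 at 0.23.

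Among 71 other genes of the same pathways, listed by role, 69 were tested, of which 22 rose and 34 fell (median log2 fold change -0.14). That is 31.9% rising and 49.3% falling, against 42.7% and 34.5% of all tested genes. In nucleotide excision repair 8 of 20 rose and 8 fell, a split that became 4 higher and 10 lower under median-ratio and under upper quartile scaling. Rad23b, a partner of Xpc, fell to 59.6 ± 2.33 FPKM in nanoparticle libraries, against 106 ± 0.210 FPKM in PBS libraries (SD, n = 3 each; limma adjusted p = 3.1e-07). Cdk7, the kinase of TFIIH, and Xab2, an Xpa-binding protein, rose, with log2 fold changes of 0.50 and 0.51. In base excision repair 6 of 13 rose and 6 fell. Parp3, a break-sensing ADP-ribosyltransferase, rose to 29.6, 30.4 and 32.1 FPKM in nanoparticle libraries, against 4.28, 4.20 and 5.29 FPKM in PBS libraries, and Aplf, an end-joining and single-strand break factor, rose by 0.73 on the log2 scale. Tdp1, which frees topoisomerase I from DNA, fell to 10.3, 10.7 and 12.3 FPKM in nanoparticle libraries, against 36.6, 33.9 and 32.7 FPKM in PBS libraries (limma adjusted p = 6.3e-08), and Parp1 fell by 1.99 on the log2 scale.

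All 5 other mismatch repair genes fell, with log2 fold changes of -0.86 to -0.37, where 34.5% of all tested genes fell. One of them, Exo1, the exonuclease that removes the mismatched strand, had 5.15 ± 0.343 FPKM in nanoparticle and 8.49 ± 0.487 FPKM in PBS libraries. In end joining and its control 5 of 17 rose and 6 fell, a lower count that dropped to 3 without nanoparticle replicate 1, nanoparticle replicate 2 or PBS replicate 3. Polm, a gap-filling polymerase of end joining, rose to 5.88 ± 0.255 FPKM in nanoparticle libraries, against 2.73 ± 0.0648 FPKM in PBS libraries. The shieldin subunits, which limit resection of broken ends, went apart. Shld3 rose (log2 fold change 1.14), while Shld2 and Shld1 fell (log2 fold changes -0.75 and -0.51, the latter with limma adjusted p = 0.022). Mre11a, a nuclease that begins resection, fell by 0.37 on the log2 scale. Of 14 genes for repair synthesis shared with replication 9 fell and 3 rose (64.3% and 21.4%, against 34.5% and 42.7% of all tested genes). Pold1 and Pold2, subunits of DNA polymerase delta, fell, with log2 fold changes of -1.91 and -2.01, while Pole4 and Pole3, small subunits of polymerase epsilon, rose, with log2 fold changes of 1.03 and 0.57.

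**Figure D5:**
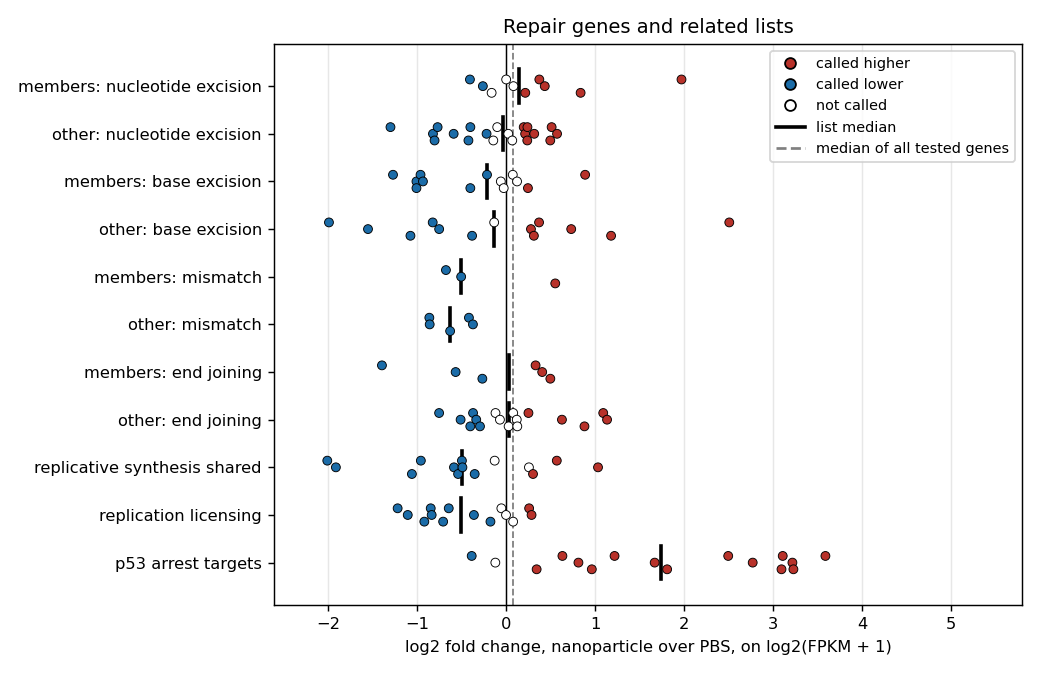
log2 fold change, nanoparticle over PBS, of every tested gene in the 4 member branches, the other genes of the same pathways, replication licensing and p53 targets, with list medians as thick bars and the median of all tested genes as a dashed line. Base excision members have a median of -0.21, replication licensing genes -0.50 and p53 targets 1.74.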

How the data were processed

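mRNA-enriched libraries of 6 RAW264.7 samples (3 nanoparticle, 3 PBS) were prepared with a BGI protocol after TRIzol extraction, per the labels' protocols. The deposited table gives 1 column per library, and columns were matched to samples through the labels' library names. The column of PBS replicate 1 adds a suffix whose meaning is not given. The header states no unit, and FPKM values, scaled by the authors for length and library size, were inferred from sums that differ between libraries and values that are not whole. The submitters' processing notes name STAR and featureCounts, with the builds GRCm38 and mm10, but no versions or roles.

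The sequencing depth per library is unknown. Whole fragments were sought in the low values of genes with 1 transcript, but at the best step only 11.9% to 31.2% were whole within 0.05, so no test of counts was run. For the same reason no counting interval or floor is given. Of 22614 rows, 509 without an Ensembl gene identifier (0.427% to 0.497% of FPKM) were left out. Genes that averaged 1 FPKM or more over the 6 libraries were tested on log2(FPKM + 1), which understates the change of low genes, with limma 3.58.1 (R 4.3.3), an intensity trend, treatment as the only term and a two-sided Benjamini-Hochberg threshold of 0.05. The test was tried on simulated data first. Only a small share of genes was changed there, so the trial does not bear on data in which 77.2% of genes are called. Same-numbered libraries deviated together (r = 0.130, 0.115 and 0.354 across genes for replicates 1, 2 and 3, each above 0.1), although nanoparticle replicate 1 with PBS replicate 2 reached 0.134. By the rule that each same-numbered r exceed 0.1 the numbers may pair the samples, on the strength of the data and not of a label. The main fit held no term for such pairing, so its p-values do not use it. Only the replicate block, an alternative with a term for the replicate number, did. Exon overlaps come from GENCODE M21 (GRCm38) and promoter sequences from RefSeq (GRCm38.p6), which held 27 of the 32 members. Xpc, Prkdc, Ddb2, Polb and Ercc3 had no entry there. Tables and plots were made with Python 3.11.15, pandas 2.3.3 and matplotlib 3.10.9.

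The members and lists were chosen with earlier results of these data known. All members are named, and from each list of other genes the 2 called higher and the 2 called lower with the smallest p-values. Mbd4, Mpg, Neil2, Neil3 and Shld1 are named besides, as the remaining listed glycosylases and shieldin subunit. Some items taken by these rules are not reported here. Alternatives were pseudocounts of 0.1 and 10, no filter and a mean of at least 5 FPKM, median-ratio, upper quartile and equal-sum scaling, no trend, a replicate block and each library left out.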

Additional observations from a re-analysis of the deposited data

How the results depend on the processing

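Of the 32 members, 24 kept their call under all 15 alternatives in which they were tested. The exceptions were Lig3, Lig4, Tdg, Ercc3, Xrcc1, Ercc6, Ogg1 and Fen1, and no called value changed sign. The base excision members called higher dropped to 1 with a pseudocount of 0.1 or 10, with no filter, under median-ratio, upper quartile or equal-sum scaling and without the intensity trend, and ranged from 1 to 2 with single libraries left out. The other end joining genes called lower numbered 3 with no filter and 3 to 6 with single libraries left out. A mean of at least 5 FPKM kept 24 members in the test, so fewer could be called: 7 members higher, mismatch members 0 higher and 1 lower, 1 end joining member higher and 3 other mismatch genes lower, with a member median log2 fold change of -0.14. Median-ratio scaling moved the member median to -0.17 and upper quartile scaling to -0.14, with 4 other nucleotide excision genes called higher and 10 lower under each and 1 replication licensing gene higher under median-ratio scaling. The median of all genes was -0.04 and -0.02 under these scalings. With the replicate block, 12 members were higher and 14 lower, Xrcc1 was gained and no other member call changed. Unknown depth leaves the counting error of low genes such as Prkdc and Lig4 unmeasured, and the cause of lost calls was not tested.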
